A study of Bos taurus with 48 samples.

Results

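The comparison described here is that of weaned with control calves on d 7 after weaning at housing. It rests on 12 of the 48 libraries of the series, chosen by treatment and day alone: 6 libraries of weaned calves (1758, 1762, 1769, 1770, 1773 and 1809) and 6 of control calves (1755, 1759, 1763, 1789, 1802 and 1803), each from a different calf. All were intact male beef calves, Simmental in the study's methods and Continental in the breed label. They were born in spring, grazed with their dams, and were vaccinated against respiratory viruses before d 0. On d 0 all calves were brought indoors. Weaned calves were separated from the dam abruptly and penned with other weaned calves, whereas control calves were penned with their dams, so that housing was common to both groups and weaning was not. Messenger RNA was sequenced from total leukocytes, obtained from blood after lysis of the red cells. The same calves were also sampled on d 0, before housing, and those 12 libraries serve here as the baseline.

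Total leukocytes are a mixture. In cattle lymphocytes usually make up the largest part, followed by neutrophils, with monocytes, eosinophils and a few basophils, and each class carries its own transcripts. A difference between groups in such a bulk sample can come from fewer cells of a class or from less RNA per cell, and the read counts alone cannot tell these apart. Separation from the dam activates the adrenal axis, and glucocorticoids are known to move leukocyte classes between blood and tissue, neutrophils into the blood and eosinophils and lymphocytes out of it. In the study, cortisol was higher in weaned than in control calves on the day after weaning only. On the day of the libraries compared here, the study found fewer total leukocytes in the blood of weaned than of control calves. Percentages of neutrophils, lymphocytes, eosinophils and monocytes were not marked as different between treatments that day. Their means were higher in weaned calves for lymphocytes and lower for the other classes. These means cover more calves than were sequenced, and the part of cell numbers in single genes was not tested. Levels are given as CPM, that is counts scaled to a common library total after normalisation by the trimmed mean of M-values (TMM) method.

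The table pairs no gene with a name. Symbols were available for 644 of its genes, through human orthologs in the study's supplementary tables, and 594 of these were tested on d 7. Of the 594 genes, 369 carry a symbol because the study listed them for this very comparison. Sets of named genes are therefore described by their values and counts, and their common direction is not independent evidence. The markers that define leukocytes as a class (PTPRC, CD3E, CD79A, CSF3R and CD14) were not among the genes with a symbol, so that the label was not checked against them. Transcripts of lymphocytes (TRAT1, ICOS, KLRK1), of mast cells and basophils (FCER1A) and of eosinophils (ALOX15) were present in every one of the 12 libraries.

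Total counts on d 7 lay between 1992050 (control 1759) and 3888457 (control 1763), and 3 counts, used here as the limit of detection for counting error alone, corresponded to 0.741 to 1.80 CPM. No pair of libraries of a group was alike within sampling noise (chi-square over degrees of freedom 2.79 to 57.9, 30 pairs). A pair of weaned calves stood apart, in opposite directions. The library of weaned 1758 had a median correlation of 0.836 with the other 11, whereas those medians were 0.941 to 0.968 for the others. The library most like that of weaned 1809 was that of control 1789 (correlation 0.967).

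The way in which these libraries differed is shown by the balance between transcripts of low level (4 to 32 CPM, 4373 genes) and of high level (over 128 CPM, 2443 genes), taken as the difference of their median log2 deviations from the mean of the d 0 and d 7 libraries. On d 7 this balance was 0.81 in weaned 1758, between 0.04 and 0.28 in the 4 weaned calves 1762, 1769, 1770 and 1773, and −0.42 in weaned 1809. The control calves lay between −0.64 and −0.03. All control calves were below 5 of the 6 weaned calves, and weaned 1809 was below 4 of the 6 control calves. The mean of the weaned calves was 0.14 ± 0.40 and that of the control calves −0.30 ± 0.23 (SD, n = 6 each, exact two-sided permutation test, p = 0.0368). On d 0 they were 0.0024 ± 0.24 and 0.19 ± 0.30 (exact permutation p = 0.275, n = 6 each).

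**Figure D1:**
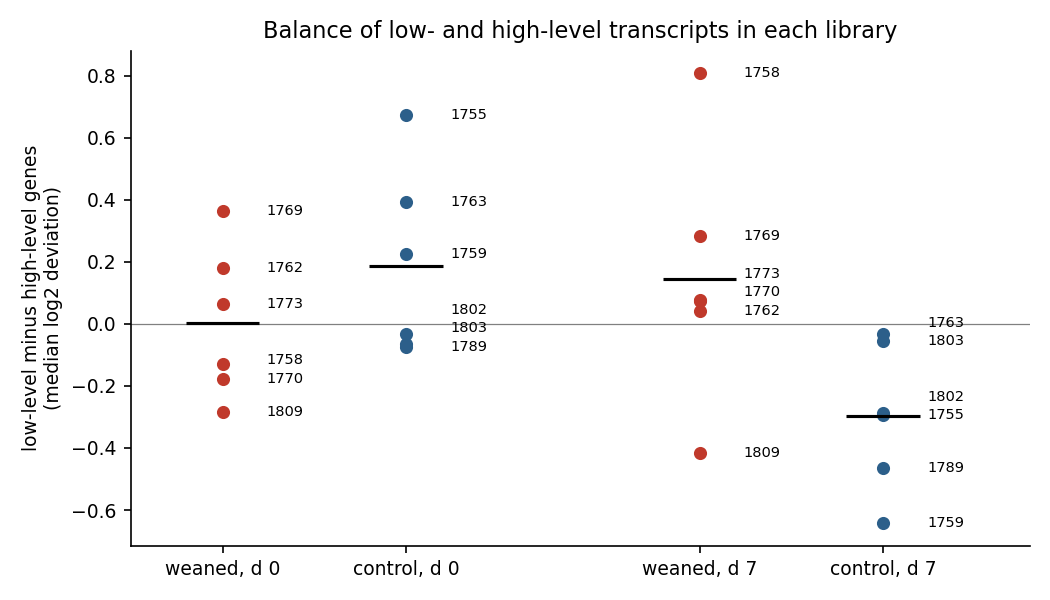
Balance of low-level (4 to 32 CPM) against high-level (over 128 CPM) transcripts in each library on d 0 and d 7, as the difference of median log2 deviations (vertical axis, log2 units). Points are calves, labelled by number, and bars are group means. On d 7 weaned 1758 sits at 0.81, weaned 1809 at −0.42 among the control calves, and all 6 control calves are below 0.

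No gene was called on d 7. Of the 13932 genes that entered the quasi-likelihood F-test of edgeR, 0 (0%) had a Benjamini-Hochberg adjusted p under 0.05 together with a change of at least 2-fold, in either direction, and the smallest adjusted p was 0.158. At an unadjusted p under 0.05, 2455 genes (17.6%) were higher and 1095 genes (7.86%) lower in weaned calves, where 696.6 genes would pass that limit if no gene differed. All genes with an unadjusted p under 0.05 had an adjusted p between 0.158 and 0.196. The exact permutation test of single genes gave an unadjusted p under 0.05 for 2884 genes and a smallest adjusted p of 0.217. With 6 against 6 calves that test cannot go below 0.00216, which 134 genes reached. A simulation drew each gene on its own, with the same spread between calves for every gene and no shift shared within a calf. In it, 54% of the genes changed 2-fold and 100% of those changed 4-fold were called. The real libraries differed from it in both respects, so these shares do not give the power of the test here.

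The number of calls depended on weaned 1809. Without this calf, 1039 genes (7.5%) were called higher and 97 genes (0.7%) lower in weaned calves, and the smallest adjusted p was 0.0269, with 3320 higher (24%) and 2679 lower (19.3%) at an unadjusted p under 0.05. Without weaned 1758 no gene was called, and the genes with an unadjusted p under 0.05 numbered 1154 higher (8.41%) and 581 lower (4.24%). Without both calves no gene was called, with 2283 higher (16.8%) and 2000 lower (14.7%) at an unadjusted p under 0.05 and a smallest adjusted p of 0.052. Other tests on all 12 libraries gave calls: 760 higher (5.46%) and 105 lower (0.754%) by edgeR's exact test with a common dispersion, 16 higher (0.115%) and 10 lower (0.0718%) by the DESeq2 Wald test, and 9 higher (0.0646%) and 9 lower (0.0646%) by edgeR's exact test with tagwise dispersions. A common dispersion gives every gene the same spread between calves. Of the 26 genes called by DESeq2, 8 had a symbol, namely FBP1, SMPD3, ALOX15, ALOX5 and GPR4 (lower) and DDX58, ABCA6 and CD38 (higher).

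The direction of the change followed the level of the gene. Genes under 4 CPM had a median log2 change of 0.31 and those between 4 and 16 CPM of 0.32, so that most of them were higher in weaned calves. The median was 0.06 between 32 and 64 CPM, −0.13 between 64 and 128 CPM and −0.24 over 256 CPM. Over all genes it was 0.03. Of the 890 genes over 256 CPM, 14.5% were higher in weaned calves, against 68.2% of the 2606 genes between 4 and 16 CPM. Without weaned 1758 the slope was shallower, with medians of 0.19 between 4 and 16 CPM and −0.18 over 256 CPM. On d 0 the medians had the opposite sign, −0.16 and 0.06 in the same classes. Changes of named genes are therefore set beside the median of their own class of level.

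**Figure D2:**
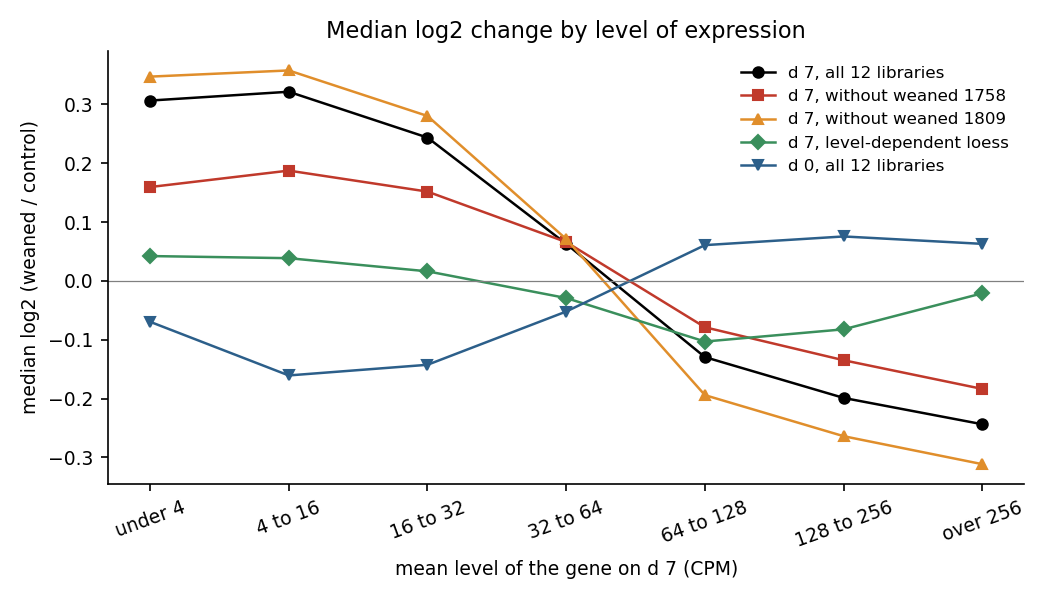
Median log2 (weaned / control) of the genes in 7 classes of mean level (horizontal axis, CPM), for d 7 with all 12 libraries, without weaned 1758, without weaned 1809, after level-dependent loess normalisation, and for d 0. The medians on d 7 go from 0.31 in the lowest class to −0.24 in the highest, and on d 0 from −0.07 to 0.06.

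Among genes lower in weaned calves, the smallest unadjusted p belonged to 5 genes with similar profiles over calves: FBP1, SMPD3, ALOX15, ALOX5 and GPR4. FBP1 encodes fructose-1,6-bisphosphatase of gluconeogenesis, which is also made in myeloid cells. In weaned calves it was at 5.97, 12 and 21.2 CPM (lowest, median and highest calf), and in control calves at 20.6, 51.5 and 126 CPM. Only control 1803 lay within the range of the weaned calves, just below weaned 1762, and control 1802 was highest. The log2 change was −2.27 (SE 0.42, exact permutation p = 0.00433, adjusted p = 0.158 by edgeR), in a class of level whose median was 0.06.

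ALOX15 and ALOX5 encode the 15- and 5-lipoxygenases, which turn arachidonic acid into lipid mediators, and ALOX15 is abundant in eosinophils. ALOX15 was at 76, 116 and 204 CPM in weaned calves and at 155, 304 and 471 CPM in control calves. ALOX5 was at 38.3, 66.9 and 119 CPM in weaned calves and at 66.8, 192 and 419 CPM in control calves. For both, control 1803 was the only control calf below the highest weaned calf, control 1802 was the highest calf and weaned 1809 the lowest. The log2 changes were −1.21 (SE 0.26, exact permutation p = 0.00866) for ALOX15 and −1.51 (SE 0.34, exact permutation p = 0.0108) for ALOX5, both with an adjusted p of 0.158 by edgeR and against a median of −0.20 in their class of level.

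SMPD3, the neutral sphingomyelinase that makes ceramide from sphingomyelin, was at 18.5, 34.5 and 46.5 CPM in weaned calves and at 36.2, 101 and 375 CPM in control calves. GPR4, a receptor that senses protons, was at 19.8, 27 and 46.2 CPM in weaned calves and at 28.4, 60.3 and 189.7 CPM in control calves. The order of the calves was again similar, with control 1802 highest, control 1803 lowest of the control calves, and weaned 1809 and 1758 lowest of all in turn. The log2 changes were −2.04 (SE 0.43) and −1.43 (SE 0.35), with an exact permutation p of 0.00866 for each. Neither rested on control 1802 for its direction. With single calves left out, SMPD3 ranged from −2.24 to −1.39 and GPR4 from −1.61 to −0.96 on the log2 scale.

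GATA1, a transcription factor of eosinophils, basophils, mast cells, platelets and red cells, was at 23.6, 24.1 and 30.9 CPM in weaned calves and at 16.5, 44.5 and 139 CPM in control calves. The weaned calves were close together, 5 control calves were above all of them and control 1803 was below all of them (log2 change −1.19, SE 0.35, exact permutation p = 0.039). Of 17 eosinophil and basophil markers 6 had a symbol, 4 of them from the study's list for d 7. Of the 6, ALOX15 and GATA1 were lower and 3 higher in weaned calves at an unadjusted p under 0.05. Over all genes, 7.86% were lower and 17.6% higher at that limit. IL5RA, the eosinophil receptor for interleukin 5, was at 0.314, 8.55 and 14.2 CPM in weaned and at 2.81, 8.07 and 38.6 CPM in control calves (log2 change −0.73, SE 0.64, exact permutation p = 0.463). MS4A2, FCER1A and CPA3, known from mast cells and basophils, were higher in weaned calves, by 1.49, 0.82 and 1.28 on the log2 scale (exact permutation p = 0.156, 0.121 and 0.203), each at an unadjusted p under 0.05 in edgeR. MS4A2 was at 22.8 CPM in weaned 1758 and between 1.26 and 4.70 CPM in the other weaned calves, and without weaned 1758 its log2 change was 0.45 (adjusted p = 0.561 by edgeR).

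On d 0 the group means of these genes lay closer together. ALOX15 had a mean of 177 CPM in calves to be weaned and of 218 CPM in control calves, FBP1 of 20.8 and 23.0 CPM, and GPR4 of 35.2 and 34.4 CPM. Between d 0 and d 7 the means of the control calves went to 313, 61.4 and 79.8 CPM and those of the weaned calves to 135, 12.7 and 29.6 CPM. ALOX15 was lower than on d 0 in 5 of 6 weaned calves, and higher than on d 0 in 4 of 6 control calves. The treatment by day interaction had a log2 size of −2.14 (SE 0.54) for FBP1 and of −0.93 (SE 0.39) for ALOX15, with adjusted p of 0.0805 and 0.108 by edgeR.

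**Figure D3:**
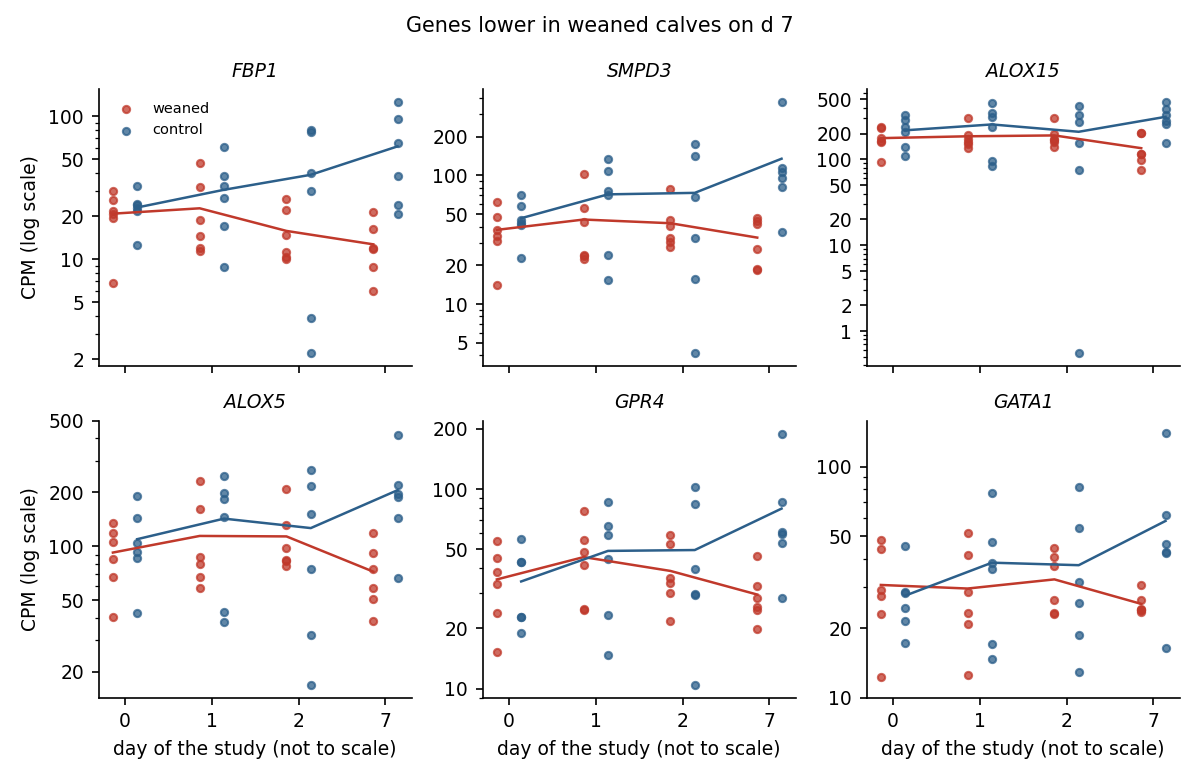
Levels of FBP1, SMPD3, ALOX15, ALOX5, GPR4 and GATA1 in the 6 weaned and 6 control calves on d 0, 1, 2 and 7 (CPM, log axis). Points are calves and lines join group means. The group means are close on d 0 and apart on d 7, when those of ALOX15 are 135 CPM in weaned and 313 CPM in control calves.

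In a further set of genes among the 15 with the smallest p in this direction, the groups did not overlap or overlapped by single calves. Of all genes tested, 76 (0.546%) were lower and 58 (0.416%) higher in weaned calves with no overlap, of which 4 and 6 had a symbol. SELP, the P-selectin of platelets and endothelium, was at 6.28, 7.78 and 9.39 CPM in weaned calves and at 9.46, 13.8 and 43.7 CPM in control calves. The gap between the groups was narrow and control 1789 was far above the others (log2 change −1.23, SE 0.34, exact permutation p = 0.00216). MYH14, a non-muscle myosin heavy chain, was at 22.8, 55 and 91.1 CPM in weaned and at 92.2, 98.6 and 137 CPM in control calves (log2 change −0.97, SE 0.24, exact permutation p = 0.00216). It was lower in the same calves before weaning, by −0.89 on the log2 scale on d 0, and its interaction with day was −0.09 (adjusted p = 0.887 by edgeR).

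The immediate early gene FOSB was at 19.0, 38.7 and 52.2 CPM in weaned calves and at 36.4, 71.3 and 169 CPM in control calves (log2 change −1.03, SE 0.31, exact permutation p = 0.0238). It was higher than on d 0 in 6 of 6 control and in 4 of 6 weaned calves. Its relative FOS did not pass at an unadjusted p under 0.05, with medians of 165 CPM in weaned and 190 CPM in control calves (log2 change −0.56, SE 0.34, exact permutation p = 0.554). Both were highest in control 1759, at 169 CPM for FOSB and 648 CPM for FOS.

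Other genes of the 15 were at low level. CDKN1C, an inhibitor of cyclin-dependent kinases, had medians of 4.64 CPM in weaned and 8.81 CPM in control calves, and SLIT3, a guidance ligand, of 5.23 and 13.2 CPM. DAB2, an endocytic adaptor, had medians of 2.75 and 8.25 CPM, and TAC3, the precursor of neurokinin B, of 3.08 and 5.78 CPM. In all of these the ranges overlapped. The last of the 15 was PTPRF, a receptor tyrosine phosphatase, at medians of 164 CPM in weaned and 254 CPM in control calves. Over the 15 genes the log2 changes lay between −2.27 and −0.60. Of the 15, 13 were lower in weaned calves in all 4 pairs of calves sequenced on a shared flowcell. These pairs are among the libraries by which the genes were chosen, so that this count is not independent evidence.

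Among neutrophil markers, 4 of 26 genes had a symbol, which stood for 6 genes of the table, since 3 of them share the name CAMP. PGLYRP1, a peptidoglycan recognition protein of neutrophil granules, was at 3.49, 4.80 and 17.4 CPM in weaned calves and at 10.6, 12.5 and 31.5 CPM in control calves (log2 change −1.13, SE 0.42, exact permutation p = 0.0238). The water channel AQP9 was higher in weaned calves, with medians of 4.22 and 2.10 CPM (log2 change 1.02, SE 0.37, exact permutation p = 0.013). The CAMP genes, cathelicidins that form a family of near-identical copies in cattle, were at or under the limit of 3 counts in most libraries, and no fold is given. HBB, a globin of red cells, had medians of 6.80 CPM in weaned and 10.2 CPM in control calves (log2 change −1.18, SE 0.46, exact permutation p = 0.0931) and reached 40.2 CPM in control 1789, the calf with the highest SELP. Without control 1789 the log2 change of HBB was −0.56. The 5 platelet markers with a symbol went both ways. At an unadjusted p under 0.05 in edgeR, SELP was lower and P2RY12, the ADP receptor of platelets, higher. P2RY12 had medians of 18.5 CPM in weaned and 11.2 CPM in control calves (exact permutation p = 0.106). The other 3 passed that limit in neither direction, and over all genes 17.6% were higher and 7.86% lower. The part of red cells or platelets carried over into the samples was not tested.

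Among genes higher in weaned calves, the smallest unadjusted p of a gene with a symbol was that of DDX58. DDX58, which encodes the cytosolic sensor RIG-I, was at 57, 80.6 and 202 CPM in weaned calves and at 22, 38.9 and 69.0 CPM in control calves. Only control 1803 was above the lowest weaned calf, 1762. The log2 change was 1.31 (SE 0.30, exact permutation p = 0.00433, adjusted p = 0.158 by edgeR), while the median of its class of level was −0.13.

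TLR3, the endosomal receptor for double-stranded RNA, was at 21.7, 26.7 and 88.7 CPM in weaned calves and at 14.3, 16.1 and 22.2 CPM in control calves (log2 change 1.12, SE 0.32, exact permutation p = 0.00433). TBK1, the kinase that signals from both sensors, had medians of 17.6 CPM in weaned and 9.67 CPM in control calves, and weaned 1809 was below all control calves (log2 change 1.09, SE 0.34, exact permutation p = 0.0325). TLR7, the receptor for single-stranded RNA, had medians of 78.6 and 52.2 CPM (log2 change 0.56, SE 0.28, exact permutation p = 0.126). PNPT1, an RNA-degrading phosphorylase of mitochondria, was also higher, with medians of 18.5 and 9.2 CPM (exact permutation p = 0.013). These 5 genes were brought together after their values were seen, 4 of them were at an unadjusted p under 0.05 (17.6% of all genes were higher at that limit), 4 were on the study's list, and no other interferon-stimulated gene of the 34 listed had a symbol.

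TNFSF10, which encodes the death ligand TRAIL, did not overlap between groups, at 33, 38.4 and 93.6 CPM in weaned and at 14.1, 24 and 31.6 CPM in control calves (log2 change 0.99, SE 0.28, exact permutation p = 0.00216). CD38, an ectoenzyme of activated lymphocytes and plasma cells, was at 5.34, 9.09 and 12.4 CPM in weaned and at 3.02, 3.98 and 5.40 CPM in control calves (log2 change 1.13, SE 0.28, exact permutation p = 0.00433). For CD38 the highest calf was weaned 1769, weaned 1758 was at 9.38 CPM, and without the latter the log2 change was 1.12. CD38 was below its d 0 level in 6 of 6 control calves and above it in 5 of 6 weaned calves.

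Co-receptors that regulate lymphocytes were described after their values were seen. CTLA4, the inhibitory receptor of T cells, was at 1.82, 3.09 and 3.45 CPM in weaned and at 0, 0.795 and 1.76 CPM in control calves, without overlap (59 and 15 counts in all, exact permutation p = 0.00216). Several control libraries were under the limit of 3 counts, and no fold is given. The highest value of CTLA4 was in weaned 1809. ICOS, the inducible co-stimulator, had medians of 8.87 and 4.46 CPM (log2 change 1.2, SE 0.38, exact permutation p = 0.0152), TRAT1, an adaptor of the T cell receptor, of 25.9 and 12.9 CPM, and BTLA, an inhibitory receptor, of 16.6 and 8.52 CPM. In these 3 genes weaned 1758 was highest of all calves and weaned 1809 lowest of the weaned calves. Of the 7 co-receptors with a symbol, 6 of which came from the study's list for d 7, 6 were higher at an unadjusted p under 0.05 (17.6% of all genes), and 4 without weaned 1758 (8.41% of all genes), with a median log2 change of 1.2. Without weaned 1758 the log2 change of TRAT1 was 0.69.

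The cytotoxic genes had a wider spread. KLRD1, a receptor subunit of natural killer cells, was at 0.314, 5.84 and 13.1 CPM in weaned and at 1.05, 2.07 and 3 CPM in control calves (log2 change 1.56, SE 0.52, exact permutation p = 0.0931). GZMA, granzyme A, was at 30.8 CPM in weaned 1758 and had medians of 6.29 and 4.96 CPM (log2 change 1.00, SE 0.54, exact permutation p = 0.457). Without weaned 1758 the log2 change of GZMA was 0.19 and that of KLRD1 1.19. Of 13 cytokine and chemokine genes tested, 6 were on the study's list for d 7. At an unadjusted p under 0.05, 3 were higher (IL18, IL12B and HGF) and 2 lower (CCL4 and CCL22) in weaned calves. Over all genes these shares were 17.6% and 7.86%, and with so few genes the counts do not set this list apart. The inflammatory cytokine IL18 had medians of 6.58 CPM in weaned and 2.77 CPM in control calves (log2 change 1.07, SE 0.41, exact permutation p = 0.0173), and only control 1763 was above the lowest weaned calf.

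The largest body of named genes was of cell division. The 5 lists of mitotic kinases and cyclins, of kinetochore, spindle and centrosome, of replication, of cohesin and condensin, and of repair together held 49 tested genes with a symbol, 43 of them from the study's own list for d 7. Of these, 48 were higher in weaned calves and 40 were so at an unadjusted p under 0.05 (17.6% of all genes), and none was lower at that limit. The median log2 change was 1.10, against 0.03 for all genes tested. The medians of their classes of level, list by list, were 0.15 to 0.32. After level-dependent loess normalisation, 22 of the 49 genes were higher at an unadjusted p under 0.05 (1729 of all 13932 genes). Their median log2 change was then 0.77. Weaned 1758 held the highest value of the 12 calves in 48 of the 49 genes and weaned 1809 the lowest in 19, and in 41 genes weaned 1809 was below the median of the control calves. Without weaned 1758 the count at an unadjusted p under 0.05 was 15 (8.41% of all genes) and the median 0.56. Without weaned 1809 it was 45 (24% of all genes), of which 36 were called (7.5% of all genes), and the median was 1.28.

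The examples by role were as follows. CENPI, a protein of the centromere, was at 20.4, 41.6 and 113 CPM in weaned and at 13, 18.4 and 30.8 CPM in control calves (log2 change 1.30, SE 0.33, exact permutation p = 0.013). NUF2, which ties the kinetochore to microtubules, had medians of 4.06 and 0.877 CPM, from 118 and 25 counts in all, and the log2 change was 1.99 (SE 0.53, exact permutation p = 0.0108) and 1.38 without weaned 1758. ORC2L, a subunit of the origin recognition complex, had medians of 32.3 and 17.4 CPM, and the log2 change was 1.17 (SE 0.34, exact permutation p = 0.0152). In each of the 3, weaned 1758 was the highest of all calves and weaned 1809 the lowest of the weaned calves.

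CDC7, the kinase that fires origins, had medians of 26.1 CPM in weaned and 12.6 CPM in control calves (log2 change 1.14, SE 0.35, exact permutation p = 0.0325). CCNE2, cyclin E2, was at 3.34, 5.17 and 20.6 CPM in weaned and at 0.6, 2.28 and 4.33 CPM in control calves (log2 change 1.56, SE 0.50, exact permutation p = 0.0108), and without weaned 1758 its log2 change was 0.92. SMC3, a subunit of cohesin, had medians of 71.1 and 40.9 CPM (log2 change 1.10, SE 0.34, exact permutation p = 0.0411). Among repair genes, the damage kinase ATR had medians of 31.9 and 16.6 CPM (log2 change 1.36, SE 0.41, exact permutation p = 0.0519), and without weaned 1758 the log2 change was 0.76. For ATR the range of the control calves lay within that of the weaned calves, since weaned 1809 at 10.1 CPM was the lowest of the 12 calves.

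All 8 general transcription factors with a symbol, 7 of them from the study's list for d 7, were higher in weaned calves, 7 at an unadjusted p under 0.05 (17.6% of all genes), with a median log2 change of 0.99. TAF9, a subunit of TFIID, was at 9.42, 12.2 and 25.7 CPM in weaned and at 4.44, 6.95 and 9.81 CPM in control calves (log2 change 1.04, SE 0.30, exact permutation p = 0.00433). TAF1A, of the polymerase I factor, had medians of 12.3 and 5.78 CPM, TFB2M, which starts mitochondrial transcription, of 17.6 and 8.64 CPM, and EIF4A2, a helicase of translation initiation, of 10.5 and 4.73 CPM. XPO1, the exporter of proteins and RNA from the nucleus, had medians of 58.1 and 33.4 CPM. The 4 aminoacyl-tRNA synthetases with a symbol (LARS, RARS, IARS and DARS), 2 of them on the study's list for d 7, were grouped after their values were seen. They were higher by 0.83 to 1.02 on the log2 scale. Each was at an unadjusted p under 0.05 (17.6% of all genes), also without weaned 1758 (8.41% of all genes).

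The other genes among the 15 with the smallest p in this direction had varied roles. ABCA6, a lipid transporter, was at 46.6, 103 and 179 CPM in weaned and at 17.8, 42.4 and 72.1 CPM in control calves (log2 change 1.34, SE 0.31, exact permutation p = 0.00433). Its highest calf was weaned 1762 and weaned 1809 was at 99.9 CPM, unlike in the genes of cell division. CRLS1, the cardiolipin synthase, had medians of 54.5 and 31.8 CPM, SLC39A10, a zinc importer, of 25.3 and 13.8 CPM, STXBP3, a partner of syntaxins, of 20.1 and 7.02 CPM, and TEC, a kinase of antigen receptor signalling, of 72.4 and 43.4 CPM. All 15 genes were higher in weaned calves in all 4 pairs that shared a flowcell. The same libraries served to choose the genes, so that this count is not independent evidence. Weaned 1758 was the highest weaned calf in 13 of the 15 genes and weaned 1809 the lowest in 13.

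**Figure D4:**
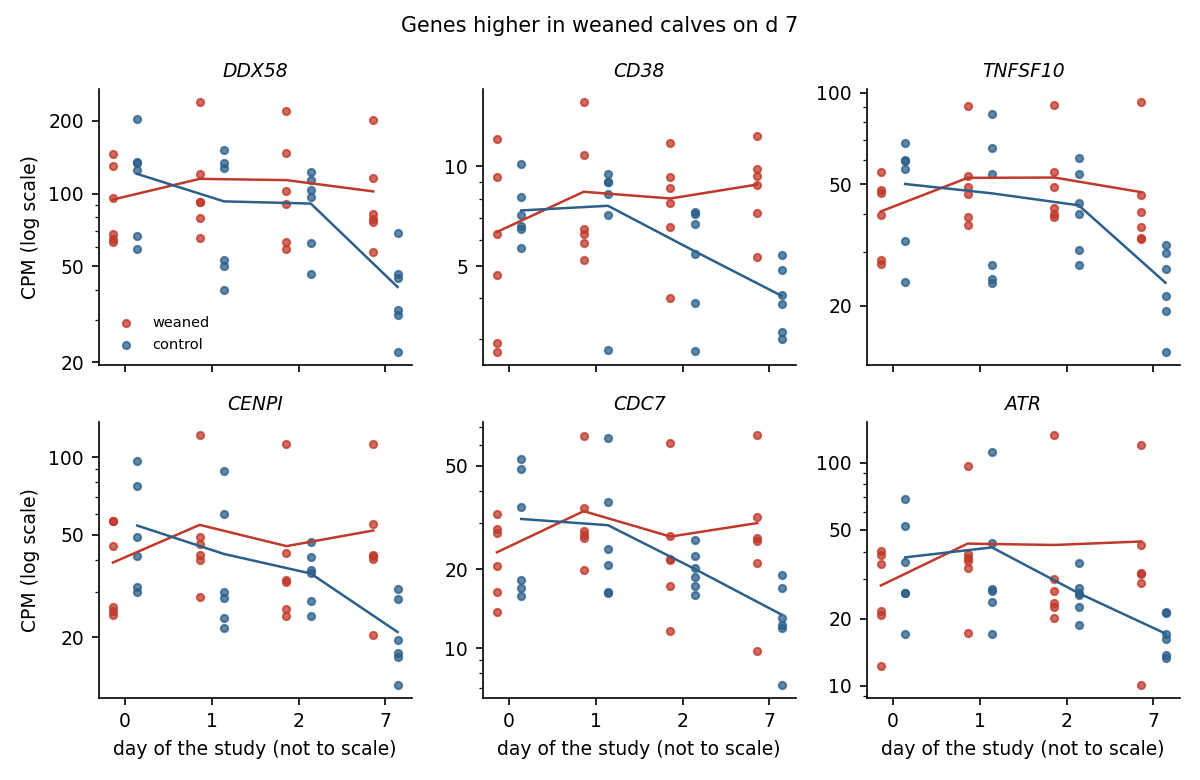
Levels of DDX58, CD38, TNFSF10, CENPI, CDC7 and ATR in the 6 weaned and 6 control calves on d 0, 1, 2 and 7 (CPM, log axis). Points are calves and lines join group means. The control means are lowest on d 7, when those of DDX58 are 41.1 CPM in control and 102 CPM in weaned calves.

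Set beside d 0, most of the distance between the groups on d 7 lay in the control calves. The mean of DDX58 was 94.5 CPM on d 0 and 102 CPM on d 7 in weaned calves, and 121 and 41.1 CPM in control calves, with the level on d 7 below that on d 0 in 6 of 6 control calves. In the 49 genes of cell division, the median of the mean change from d 0 to d 7, on the scale of log2(CPM + 1), was 0.27 in weaned and −0.90 in control calves. The mean was below that of d 0 in 48 of the 49 genes in control calves and in 2 in weaned calves. All 6 control calves were below their own d 0 level in 19 of the 49 genes (38.8%), against 13.4% of all genes tested, while in weaned calves this held for 0 of the 49 genes and 1.04% of all genes. The mean change was larger in control than in weaned calves in 47 of the 49 genes (95.9%) and in 78.3% of all genes.

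Within calves the values were uneven. The d 7 library of weaned 1758 did not resemble the d 0 library with the same calf number (correlation of deviations −0.458, against 0.633 with that of weaned 1762), so that its change from d 0 is uncertain. For control 1755 these correlations were −0.134 and 0.318 (with control 1802), and for control 1803 they were 0.0179 and 0.495 (with control 1755). Weaned 1770 (0.185 against 0.189) and control 1802 (0.137 against 0.165) were also closer to another d 0 library. The changes of these calves from d 0 are likewise uncertain. The median change of the 49 genes from d 0 to d 7 was 2.09 in weaned 1758 and between −0.38 and 0.35 in the other weaned calves. In control calves it was −1.87 in 1755, −1.21 in 1759, −1.04 in 1763, −0.59 in 1802, −0.48 in 1789 and 0.08 in 1803. The lowest change of the weaned calves, that of 1809, was thus smaller than those of 5 control calves, and control 1803 was the only control calf without a decrease. On d 0 the 49 genes were already lower in the calves to be weaned, in 49 of 49 genes with a median log2 change of −0.45, of which 7 had an unadjusted p under 0.05. At that limit 293 genes (2.1%) were higher and 574 genes (4.12%) lower over all genes on d 0, and 0 genes were called.

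The difference between the days was tested as the treatment by day interaction over 24 libraries. Of 14713 genes, 0 were called and the smallest adjusted p was 0.0805, with 3214 genes (21.8%) positive and 1777 genes (12.1%) negative at an unadjusted p under 0.05. With calf as replicate block these were 3091 (21%) and 2181 (14.8%), again with 0 called. Of the 49 genes of cell division, 40 were positive at that limit and the median log2 interaction was 1.53. Since the d 7 libraries enter both, the interaction is not a second line of evidence for the difference on d 7.

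With the share of reads that the authors kept after removing identical reads as a covariate, the genes with an unadjusted p under 0.05 numbered 412 higher (2.96%) and 535 lower (3.84%), and no gene was called. The 49 genes of cell division then had a median log2 change of 0.40, with 2 of them at an unadjusted p under 0.05. In the same fit the log2 change was −1.21 for ALOX15, −2.07 for FBP1 and −1.39 for ALOX5. Under this covariate, of the 30 genes with the smallest p, 13 of the 15 lower and 10 of the 15 higher genes stayed at an unadjusted p under 0.05. Within the 4 flowcells that carried both treatments, 2121 genes were higher (15.6%) and 1172 genes lower (8.65%) at an unadjusted p under 0.05, with 0 called. There the 49 genes had a median log2 change of 1.12 and 29 were at an unadjusted p under 0.05. Some of the lower genes were closer to 0 within shared flowcells. Their log2 changes there were −1.26 for FBP1, −1.2 for SMPD3, −1.06 for ALOX15, −1.03 for ALOX5, −0.92 for GPR4 and −0.53 for GATA1. Others were further from 0 there, at −1.23 for MYH14, −1.19 for FOSB, −1.36 for SLIT3, −1.58 for DAB2 and −0.67 for PTPRF. Of the 15 lower genes 11 and of the 15 higher genes 15 stayed at an unadjusted p under 0.05, and GATA1 did not. The part of the share of reads kept and of the flowcell in the difference on d 7 was not tested further.

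**Figure D5:**
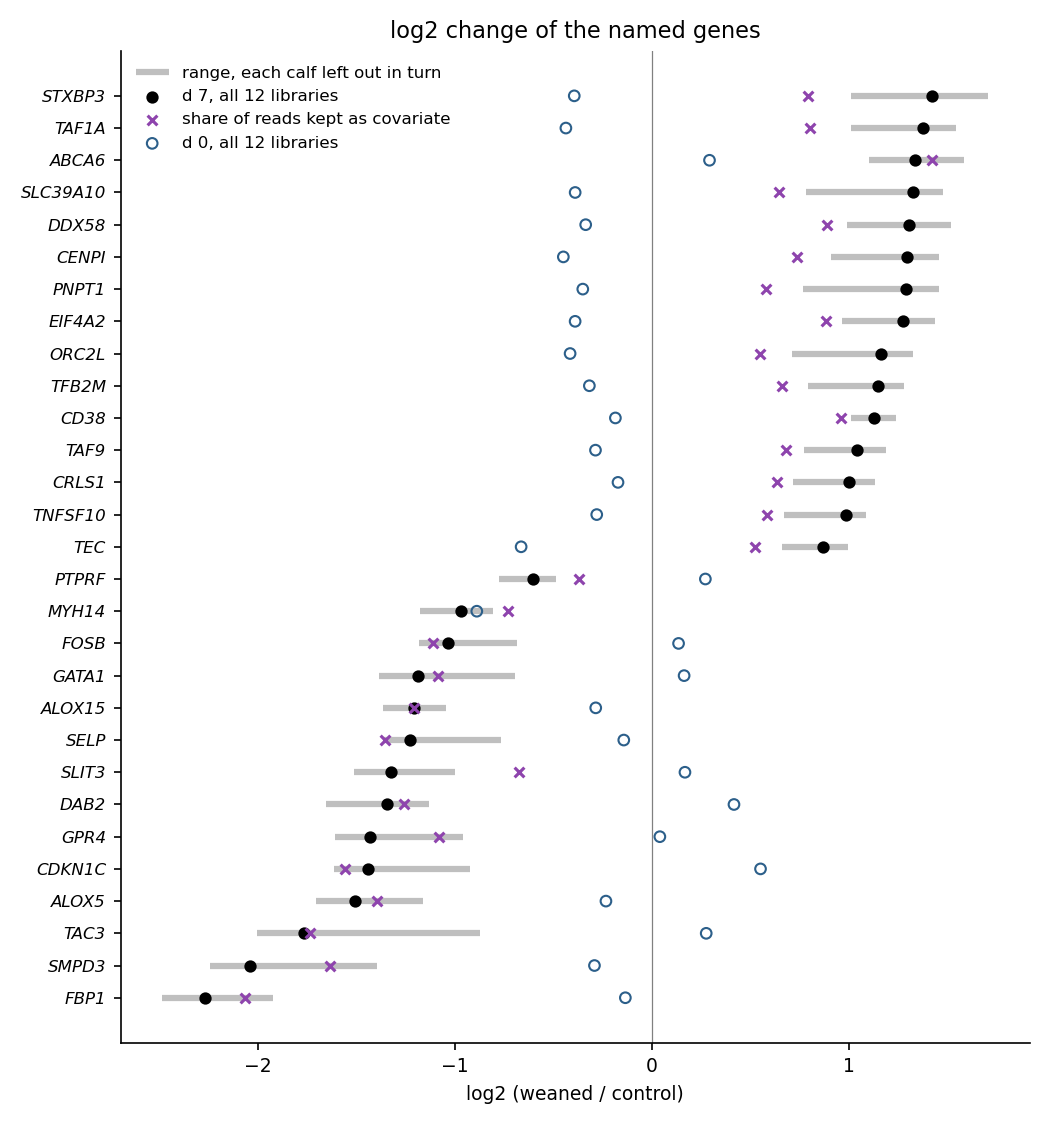
Change between weaned and control calves (horizontal axis, log2) of 14 of the 15 genes lower and the 15 genes higher with the smallest unadjusted p and a mean of at least 5 CPM. Black points are d 7 with all 12 libraries, grey bars the range when each calf is left out in turn, crosses the fit with the share of reads kept as a covariate, and open circles d 0. No bar crosses 0, and the lowest value on d 0 is that of MYH14, at −0.89.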

How the data were processed

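Leukocyte libraries of 6 weaned and 6 control calves on d 7, and of the same calves on d 0, were used. The authors aligned 36 bp reads with Bowtie 0.12.7 to Btau 4.0 allowing no mismatch and no second alignment, removed identical reads at a position, and deposited raw counts per Ensembl gene made with HTSeq 0.4.6p2. Whether counting used the strand is not given in the sources used here. Removing identical reads lowers the counts of abundant transcripts most.

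Counts were tested with edgeR 4.0.16 (R 4.3.3): TMM, genes with at least 10 counts over the 12 libraries, quasi-likelihood F-test, with calls at 2-fold and a Benjamini-Hochberg adjusted p below 0.05. Levels are CPM with TMM over 48 libraries. Single genes were compared by two-sided exact permutation of log2(CPM + 1) over 924 assignments. Named genes were the 15 per direction with a symbol, at least 5 CPM on average and the smallest p, and up to 4 per list of 31 gene lists. Of the lower ones, 1 is not reported here. At most 50% of the genes of a list had a symbol. The members and lists were chosen with earlier results of these data known. Symbols came from the study's human orthologs and were taken over as given there. Libraries of 1 calf are paired by the labels. Own d 0 and d 7 deviations correlated at −0.458 to 0.735, and the own d 0 library was the closest for 7 of 12 calves.

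Alternatives were RLE size factors, DESeq2 1.42.0, other filters, edgeR's exact and robust tests, all 48 libraries in 1 fit, flowcell, the share of reads kept, and leaving out each calf. Loess normalisation and leaving out weaned 1758 and 1809 together were chosen after seeing the data. The fit was tested on simulated data. Tables and figures were made with Python 3.11.15, numpy 2.4.6, pandas 2.3.3 and matplotlib 3.10.9.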

Additional observations from a re-analysis of the deposited data

Results flagged for a closer look

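In 15 groups of 6 calves among the genes with the smallest p, the highest calf lay so far above the next that the gap passed Dixon's 95% critical value, which chance alone does in about 1 in 20 groups. In control calves, 1802 stood out for SMPD3 (375 CPM), GPR4 (189.7 CPM) and GATA1 (139 CPM). Control 1789 stood out for SELP (43.7 CPM) and TAC3 (34.6 CPM), and control 1759 for FOSB (169 CPM).

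In weaned calves, the calf that stood out was 1758 each time, for CENPI (113 CPM), TAF1A (29.8 CPM), SLC39A10 (87.9 CPM), TNFSF10 (93.6 CPM), STXBP3 (51.2 CPM), TFB2M (42.6 CPM), TAF9 (25.7 CPM), ORC2L (98.7 CPM) and PNPT1 (59.8 CPM). The fits without control 1802, control 1789 and weaned 1758 left the direction of each of these genes as it was.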

How the results depend on the processing

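No gene was called on d 7 with edgeR's F-test, and 26 were called by DESeq2, 18 by edgeR's exact test with tagwise and 865 with a common dispersion. With each calf left out in turn, calls ranged from 0 to 1136, the latter without weaned 1809, genes higher at an unadjusted p under 0.05 from 1154 (without weaned 1758) to 3320, and genes lower from 581 to 2679 (696 without control 1789, 622 without weaned 1769). Genes lower at that limit numbered 482 with the exact test and a common dispersion, 535 with the share of reads kept as covariate, which left 412 higher, and 2000 without weaned 1758 and 1809 together.

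With calf as replicate block, the interaction had 0 calls and 3091 positive and 2181 negative genes at an unadjusted p under 0.05, and without weaned 1758 and 1770 in that blocked fit 1487 and 413. The block changed no call.

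Of the single genes, some reversed: TLR10 from 0.57 to −0.078 with the share of reads kept, and MARCO from 0.62 to −1.56 without both weaned calves. With 1 calf left out, MARCO ranged from −1.50 (without weaned 1809) to 2.70, CLEC7A from −0.28 to 0.14 and PPBP from −0.99 to 0.053 (without control 1789). CLEC7A went from −0.089 to 0.59 with flowcell as a term and to 0.60 on the shared flowcells, and was above 0 without control 1763, control 1802, weaned 1770 or weaned 1809. The other reported log2 values kept their direction, 2265 of them also their side of an unadjusted p of 0.05, while 189 lost and 48 gained it. The causes were not tested. Library totals limit what can be said of genes under 1.80 CPM.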

Other observations

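The genes that were lower in weaned calves on d 7 were also low together in a library of the series that enters no comparison here. In control 1755 on d 2, ALOX15 had 2 counts (0.552 CPM), after 1149 counts on d 1 (313 CPM), and it had 737 counts (259 CPM) in the same calf on d 7. In that d 2 library SMPD3 was at 4.14 CPM, FBP1 at 2.21 CPM, ALOX5 at 16.8 CPM and GATA1 at 13 CPM, and on d 1 these were at 75.4, 26.7, 199 and 47.4 CPM. GPR4 was at 29.5 CPM, after 65.6 CPM. Genes higher in weaned calves on d 7 also fell in this calf, but by a smaller factor than ALOX15, SMPD3, FBP1 and ALOX5. From d 1 to d 2, CENPI went from 88.7 to 41.1 CPM, CDC7 from 63.7 to 25.9 CPM and ATR from 112 to 35.6 CPM. DDX58 went from 128 to 114 CPM. On d 2, ALOX15 lay between 74.3 and 422 CPM in the other control calves, whereas CDC7 and ATR were highest of the control calves in control 1755. Control 1789 was also low in the lower genes on d 2, with ALOX15 at 74.3 CPM and FBP1 at 3.90 CPM, and high on d 7, at 279 and 94.8 CPM. This pattern was chosen after the values were seen.

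Transcripts that mark connective tissue rather than leukocytes differed between single calves and went both ways. Of 7 fibroblast and endothelial markers tested, 5 were on the study's list for d 7. At an unadjusted p under 0.05, 2 were higher (THBS2 and FBN1) and 2 lower (COL1A1 and COL1A2) in weaned calves. Over all genes, 17.6% were higher and 7.86% lower at that limit. The median log2 change of the list was −0.82 on d 7 and 1.58 on d 0. COL1A1, a chain of collagen I, was at 0 to 27.3 CPM in weaned and at 6.79 to 174 CPM in control calves (190 and 826 counts in all, exact permutation p = 0.0671). COL1A2, the other chain, had 73 and 312 counts in all (exact permutation p = 0.115). FBN1, fibrillin 1, was at 165, 111, 96.5 and 38.9 CPM in weaned 1769, 1773, 1770 and 1758 and at 71.0 CPM in control 1755, and between 3.02 and 9.60 CPM in the other 7 calves (log2 change 2.11, SE 0.86, adjusted p = 0.168 by edgeR, exact permutation p = 0.115).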
